A study of Mus musculus with 73 samples.

Results

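The cells described here are the 19 of 73 single cells whose level of prestin mRNA was intermediate. Prestin is the product of Slc26a5, a gene on the minus strand of chromosome 5 (21810655 to 21865604 in mm10). Cells were chosen by Slc26a5 CPM (counts of a gene relative to all counts of its library): 10 CPM or more and below 100 CPM. These cells made up 26.03% of the series (exact 95% Clopper-Pearson interval 16.5 to 37.6, which covers counting error only), with 22 cells below and 32 cells above the range. All 73 cells carried the label of Casz1-null inner hair cells (IHCs) of the mouse cochlea at postnatal day 14. They came from mice of the genotype Atoh1Cre/+; Casz1flox/flox with the reporters Ai47 and Frt-stop-Frt-tdTomato and with Fgf8-Flpo/+. The Cre allele sits at Atoh1, which turns on early in hair cell development, so Casz1 was lost and GFP gained in hair cells of both kinds, while the Flp allele at Fgf8, an IHC gene, added tdTomato. GFP-positive, tdTomato-positive cells were taken by hand under the microscope, and full-length cDNA was sequenced from each. Every cell of every range shared this genotype, so a range of prestin is not a treatment, and no wild-type cell was analysed here. The labels name no animal. The 73 cells therefore counted as 1 sample, and the values below describe these libraries without a test, an SE or a p-value.

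Prestin is the membrane motor protein that lets outer hair cells (OHCs) change length with their voltage and so amplify sound. IHCs release glutamate at ribbon synapses onto the auditory nerve and normally make little prestin. OHCs of the mature cochlea receive inhibitory efferent nerve endings, whose acetylcholine acts through the receptor subunits encoded by Chrna9 and Chrna10 and the calcium-activated potassium channel encoded by Kcnn2. Casz1, a zinc-finger transcription factor, was deleted in the study to ask about the stability of IHC fate and the survival of OHCs.

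Slc26a5 spanned 11.8 to 89.7 CPM in the intermediate cells, with a median of 48.7 CPM. The median was 0.24 CPM in the cells below 10 CPM, called low-prestin cells here, and 425 CPM in the cells at 100 CPM or more, called high-prestin cells. These values chose the cells and are given as a description. Just below the lower limit stood cells at 5.10, 5.82 and 6.25 CPM, and just above it cells at 11.8, 19.6 and 20.9 CPM. At the upper limit the nearest cells stood at 77.8, 87.1 and 89.7 CPM below and at 126, 128 and 144 CPM above.

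**Figure D1:**
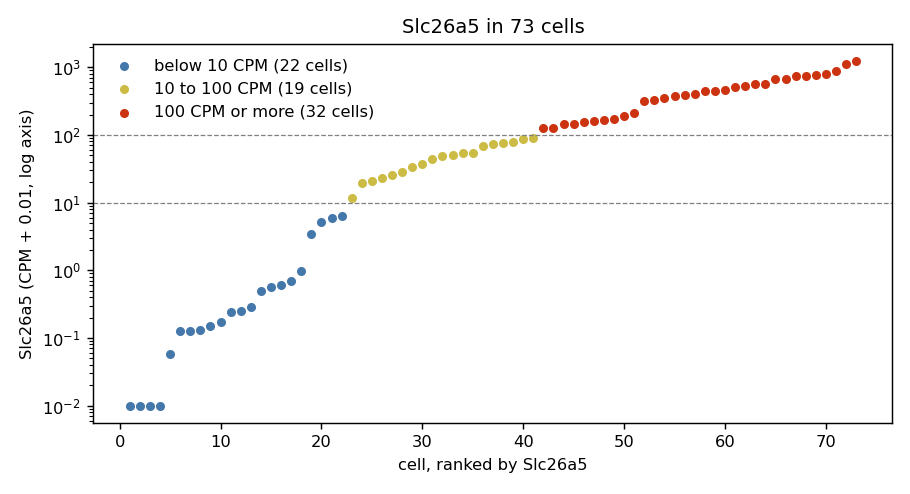
Slc26a5 level of each of the 73 cells in CPM (log axis, with 0.01 added so that cells at 0 can be drawn), ranked from lowest to highest, with dashed lines at 10 and 100 CPM. The 19 intermediate cells run from 11.8 to 89.7 CPM, with cells at 5.10 to 6.25 CPM just below and at 126 to 144 CPM just above.

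The intermediate cells held hair cell transcripts like the other cells. A median of 13 of 16 general hair cell genes was at 10 CPM or more per intermediate cell, against 12.5 in low-prestin and 14 in high-prestin cells. IHC genes were present to the same extent in every range (median 9 of 12), while the median number of OHC genes at 10 CPM or more was 7 in low-prestin, 10 in intermediate and 11 in high-prestin cells, Slc26a5 included. Casz1 reads had medians of 53.9, 48.8 and 34.5 CPM in the same order. The labels do not say which exons were removed, so these reads do not check the deletion.

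Other properties of the libraries also moved with the prestin range. The median share of counts from the mitochondrial genome was 8.80% in low-prestin, 6.06% in intermediate and 5.08% in high-prestin cells. The share from cytosolic ribosomal protein genes was 1.498%, 1.701% and 1.966%. Libraries of intermediate cells held 12689673 to 35881810 counts, within the range of all 73 (11027945 to 37183702). Rare markers of other cell types reached 50 CPM in 9 intermediate cells, 6 low-prestin and 13 high-prestin cells. Among intermediate cells, cell 5 held 7985 CPM of lymphocyte transcripts and cell 67 held mesenchymal and supporting cell transcripts. The part of ribosomal share and depth in the results below was not tested.

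For each of 8618 genes averaging at least 10 CPM over all cells, the median log2(CPM + 1) was taken in each prestin range. A gene was called rising or falling when the medians of high-prestin and low-prestin cells differed by at least 1 log2 unit and the higher median was 10 CPM or more. By this fold, 887 genes (10.3%) were rising and 1256 (14.6%) falling, 24.9% in all. The position of a gene places the intermediate median on the line between both ends: 0 is the low-prestin median and 1 the high-prestin median. A position below 0 or above 1 means that the intermediate median lay beyond an end. A position of 0.67 or more, near the high-prestin cells, is called early, and one of 0.33 or less, near the low-prestin cells, is called late. Both words order genes along the prestin level and say nothing of time. They also cover genes with a position below 0 or above 1, for which they give no order along prestin.

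Intermediate cells did not resemble one end of the range in all genes. Of the rising genes, 369 (41.6%) were early, 175 (19.7%) lay between and 343 (38.7%) were late, with a median position of 0.53. Of the falling genes, 448 (35.7%) were early, 223 (17.8%) lay between and 585 (46.6%) were late, with a median position of 0.39. Positions lay above 1 in 171 of the early rising and 209 of the early falling genes. They lay below 0 in 141 of the late rising and 262 of the late falling genes. Many of these genes are read in some cells and at 0 in others, so that a few cells decide a median. Leaving out any single cell kept the class of 489 of the 887 rising and 716 of the 1256 falling genes. Moving the prestin limits to 5 and 50 CPM kept 46.6% of late and 59.1% of early rising genes in their class. With the mean raised to 50 CPM or more, 204 of 436 rising genes were early and 129 late, and 78 of 408 falling genes were early and 232 late. Among the 889 genes averaging at least 200 CPM, 6.19% were rising and 4.72% falling. Among all 8618 genes, the share of cells at 10 CPM or more was 50 percentage points higher at the upper end of the prestin range for 0.522% and lower for 0.348%.

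**Figure D2:**
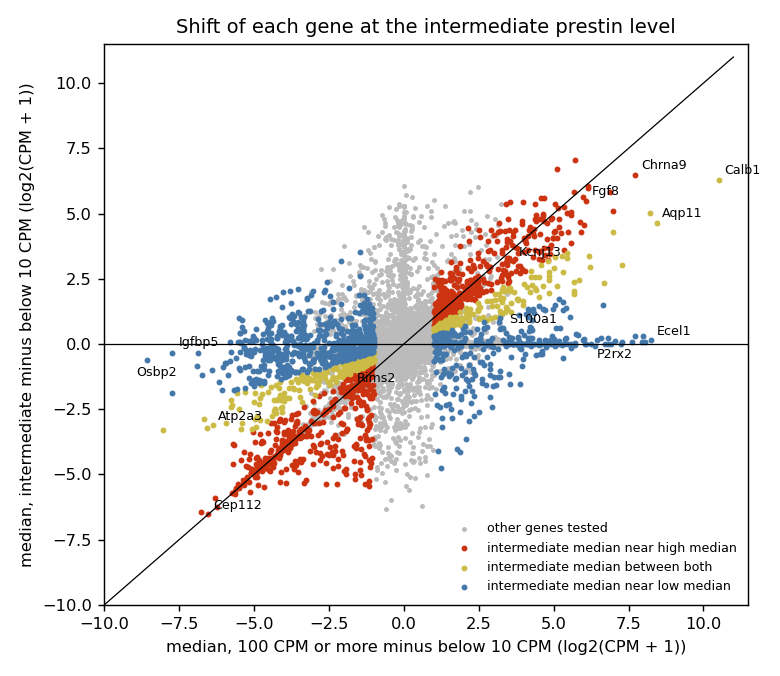
Each point is 1 of 8618 genes: the x axis gives the difference of medians between high-prestin and low-prestin cells, and the y axis the difference between intermediate and low-prestin cells, both in log2(CPM + 1). Red points near the diagonal are early genes, blue points near the horizontal line are late genes, and genes such as P2rx2 and Chrna9 with like differences on the x axis stand far apart on the y axis.

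Promoters are shown for prestin and for genes at different places along its range: Chrna9 (early), Aqp11 (between) and Chrna10 (late). They are the 250 bases before the RefSeq start of the gene (GRCm38.p6), at chr5:21865605-21865854 on the minus strand for Slc26a5, chr5:65966874-65967123 on the plus strand for Chrna9, chr7:97738248-97738497 on the minus strand for Aqp11 and chr7:102116714-102116963 on the minus strand for Chrna10. The RefSeq start of Chrna9 lies inside the GENCODE interval given for this gene below. The bases shown for Chrna9 are therefore not upstream of that interval. Capitals mark a match to a searched motif.
Slc26a5: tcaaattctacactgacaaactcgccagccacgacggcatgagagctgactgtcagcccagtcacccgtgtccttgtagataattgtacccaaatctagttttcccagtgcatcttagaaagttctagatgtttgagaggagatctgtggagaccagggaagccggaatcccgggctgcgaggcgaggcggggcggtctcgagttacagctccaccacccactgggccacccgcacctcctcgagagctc
Chrna9: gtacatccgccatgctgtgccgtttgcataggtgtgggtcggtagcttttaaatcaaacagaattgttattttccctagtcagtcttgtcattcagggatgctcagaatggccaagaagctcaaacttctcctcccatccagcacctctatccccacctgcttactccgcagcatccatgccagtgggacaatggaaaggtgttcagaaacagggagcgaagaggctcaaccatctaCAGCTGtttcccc
Aqp11: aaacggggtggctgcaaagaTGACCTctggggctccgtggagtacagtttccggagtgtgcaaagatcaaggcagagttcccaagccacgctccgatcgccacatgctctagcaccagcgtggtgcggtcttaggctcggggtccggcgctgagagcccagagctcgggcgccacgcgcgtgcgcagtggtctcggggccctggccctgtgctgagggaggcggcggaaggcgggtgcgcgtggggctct
Chrna10: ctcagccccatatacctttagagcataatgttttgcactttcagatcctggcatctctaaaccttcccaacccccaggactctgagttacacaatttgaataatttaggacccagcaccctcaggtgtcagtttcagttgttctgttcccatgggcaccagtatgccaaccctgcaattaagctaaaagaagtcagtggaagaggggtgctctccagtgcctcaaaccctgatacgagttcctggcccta
The motifs searched on both strands were CAGCTG (an E-box, the element bound by Atoh1 and related factors), AGGTCA (bound by many nuclear receptors) and GGTGTGA (bound by T-box factors), each counted on its own, so that overlapping matches count for each. Chrna9 holds CAGCTG and Aqp11 holds AGGTCA on the reverse strand, and the other promoters hold none of these letters. Over windows of 300 bases (250 before and 50 from the start), AGGTCA was in 11.6% of 6811 tested genes with an entry and in 10.0% to 12.5% of the 6 classes. CAGCTG was in 13.4% of tested genes and in 10.7% to 14.3% of the classes, and GGTGTGA in 3.22% and in 2.28% to 4.46%. The classes thus held these motifs about as often as all tested genes.

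Genes of OHCs and genes of the efferent synapse stood at different places. Of 11 OHC genes tested other than Slc26a5, 9 were rising against 10.3% of all genes, 2 of them early, 4 between and 3 late. Members of the list had already been seen to follow prestin in these data, so the count describes the list and is no independent support. Of 7 efferent synapse genes, 4 were rising, also against 10.3% of all genes: Chrna9 and Kcnn2 early, Atp2b2 between and Chrna10 late. Kcnn2 and Chrna10 are also in the OHC list, while Chrna9 is in the list of general hair cell genes.

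Chrna9, on chromosome 5 from 65934921 to 65977326, encodes the receptor subunit that opens to efferent acetylcholine. Its level ran from 0 through a median of 117 to 576 CPM in intermediate cells, from 0 through 0.32 to 251 CPM in low-prestin cells and from 0.20 through 280 to 980 CPM in high-prestin cells. It reached 10 CPM in 14 of 19 intermediate cells, against 6 of 22 low-prestin and 31 of 32 high-prestin cells. The ranges overlapped, and 5 intermediate cells lacked the transcript at this level. Chrna10, its partner subunit, was instead at 10 CPM in 3 low-prestin, 9 intermediate and 19 high-prestin cells. Its medians were 0, 0.08 and 27.1 CPM, and its position of 0.02 ranged from 0.01 to 0.45 when single cells were left out. Chrna10 was not called when cells with rare markers of other types were left out, and lay between with means in place of medians. Kcnn2 had medians of 24.6, 77.2 and 76.9 CPM, with a range of 5.67 to 280 CPM in intermediate cells. Its median was thus about the same in intermediate and high-prestin cells, but it was no longer called when means replaced medians, when levels were corrected for the mitochondrial share or when cells with rare markers of other types were left out.

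The potassium channel gene Kcnj13 was early as well. Kcnj13 was at 74.1 CPM or more in every intermediate cell, with a median of 349 and a maximum of 708 CPM. In low-prestin cells it ran from 0 through 37.7 to 415 CPM, and in high-prestin cells from 0 through 481 to 1327 CPM. The position of Kcnj13 was 0.87 (0.86 to 0.88 with any 1 cell left out). The gene overlaps Gigyf2 on the opposite strand, and no source used here says that strand was counted. P2rx2, an ATP-gated channel gene on chromosome 5 from 110339812 to 110343212, was late. It reached 10 CPM in 0 low-prestin, 4 intermediate and 22 high-prestin cells, with medians of 0, 0.06 and 157 CPM. The highest level of all was in an intermediate cell, at 1175 CPM, while most intermediate cells were at or near 0. Of 14 ion channel genes tested, 4 were rising and 4 falling (Kcnab1 and Scn8a early, Trpm4 and Lrrc52 late), against 10.3% and 14.6% of all genes. Kcnab1, Scn8a and Lrrc52 were not called after correction for the mitochondrial share. Without the cells with rare markers of other types, Lrrc52 was early and Kcnab1 and Scn8a were not called.

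Calcium-binding proteins of OHCs lay between the ends by their medians, though not under every setting. Calb1, which encodes the calcium buffer calbindin and lies on chromosome 4 from 15881264 to 15908064, ran from 0.10 through 122 to 3678 CPM in intermediate cells. It ran from 0 through 0.56 to 318 CPM in low-prestin cells and from 0 through 2304 to 6768 CPM in high-prestin cells. It was at 10 CPM or more in 4 low-prestin, 14 intermediate and 28 high-prestin cells. Calb1 was therefore present in most intermediate cells at a level well under that of most high-prestin cells. Ocm, the OHC calcium buffer oncomodulin, ran from 214 through 1510 to 4912 CPM in intermediate cells, with medians of 417 CPM in low-prestin and 4367 CPM in high-prestin cells. Sri, the calcium-binding protein sorcin, had medians of 192, 573 and 1076 CPM and was at 223 CPM or more in every intermediate cell. Aqp11, an aquaporin gene, had medians of 0.20, 28.96 and 418 CPM and a position of 0.55. These genes overlapped between neighbouring ranges. Of 16 calcium-handling genes tested, 7 were rising (Slc8a1 early, Calb1, Ocm, Sri, Atp2b2 and Anxa5 between, S100a1 late) and 2 falling. Against these counts, 10.3% of all genes were rising and 14.6% falling. Without the cells with rare markers of other types, Calb1, Ocm, Sri, Atp2b2 and Anxa5 were all early, and Ocm, Sri and Anxa5 were early with means in place of medians. After correction for the mitochondrial share, Calb1 and Anxa5 were early and Sri was not called. Slc8a1 was late with prestin limits of 5 and 50 CPM. It was not called with means in place of medians, with a pseudocount of 10 or after correction for genes detected. In all, Slc8a1 left its class under 6 of 16 alternatives.

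**Figure D3:**
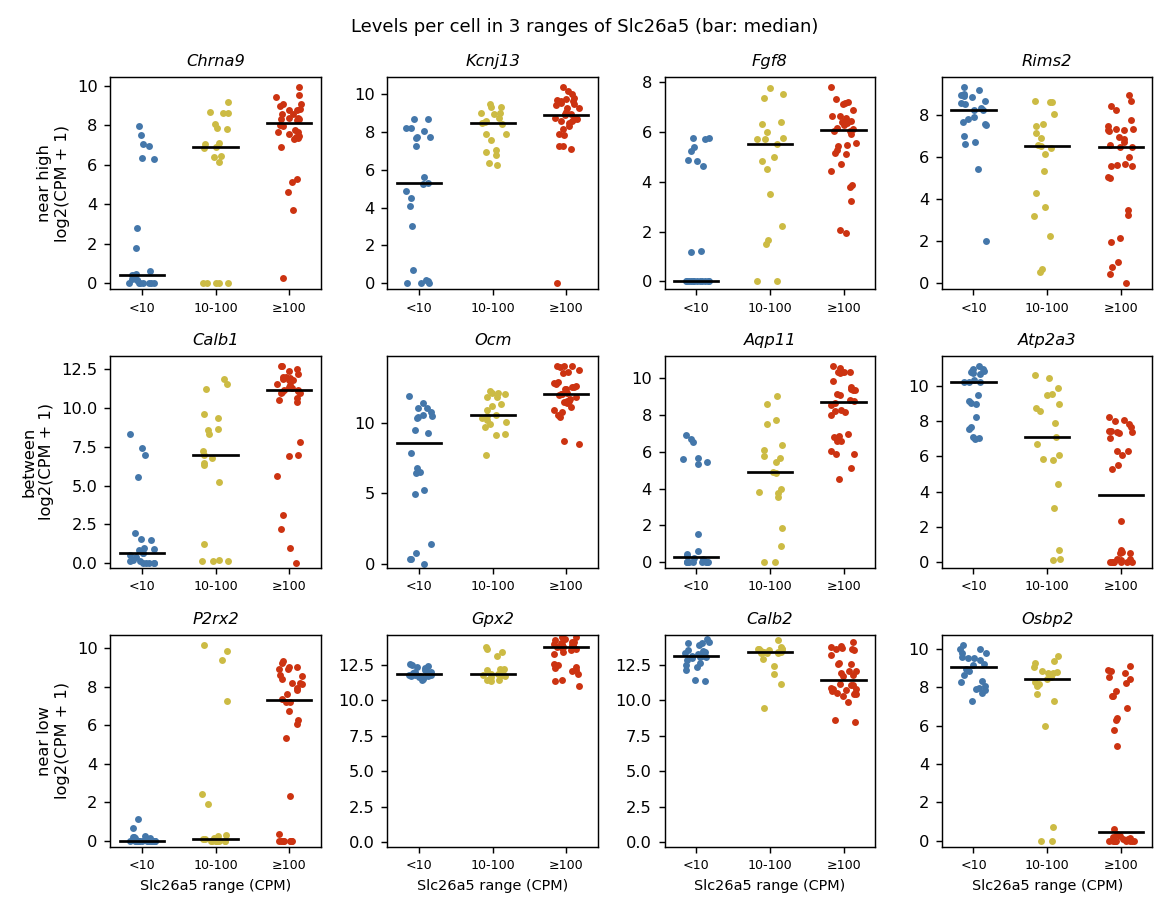
Levels of 12 genes in log2(CPM + 1), 1 point a cell and a bar at the median, in cells with Slc26a5 below 10, 10 to 100 and 100 CPM or more. The rows hold genes whose intermediate median lies near that of high-prestin cells (top), between both (middle) and near that of low-prestin cells (bottom), where a few intermediate cells stand apart for P2rx2, Gpx2 and Osbp2.

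IHC genes mostly kept their level in intermediate cells. Of 11 IHC genes tested, 6 were falling against 14.6% of all genes, 3 of them late, 2 between and 1 early, and Fgf8 was rising. Calb2, which encodes the calcium buffer calretinin, ran from 703 through 10874 to 19079 CPM in intermediate cells. The medians were 8744 CPM in low-prestin and 2775 CPM in high-prestin cells, so the intermediate median lay above the low-prestin one. Tbx2, a transcription factor gene of IHC identity, had medians of 193, 165 and 50.6 CPM and reached 10 CPM in all 22 low-prestin, 17 intermediate and 22 high-prestin cells. Tbx2 was late, but lay between without the cells with rare markers of other types. Slc7a14, a membrane transporter gene, had medians of 226.1, 236.8 and 58.999 CPM, and was not called after correction for the mitochondrial share. Atp2a3, on chromosome 11 from 72961169 to 72993044, encodes a calcium pump of the endoplasmic reticulum and lay between, at medians of 1178, 134 and 21.1 CPM. In intermediate cells Atp2a3 ran from 0.12 to 1541 CPM, so that single cells overlapped both other ranges. It was late after correction for the mitochondrial share and early without the cells with rare markers of other types. Dnajc5b, a chaperone gene, had medians of 773, 399 and 228 CPM. Shtn1 was early, with medians of 99.4, 15.5 and 21.7 CPM.

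Slc17a8, the vesicular glutamate transporter, and Otof, the calcium sensor of vesicle release, were not called. Slc17a8 ran from 436 through 1320 to 1999 CPM in intermediate cells, with medians of 1679 CPM in low-prestin and 1208 CPM in high-prestin cells. Otof had medians of 3280, 3102 and 2495 CPM, and Gata3, a transcription factor gene, had 324, 271 and 194 CPM. Fgf8, the signal whose allele also drove Flp here, went with the OHC genes. It had medians of 0, 43.9 and 66.4 CPM and reached 10 CPM in 8 low-prestin, 14 intermediate and 29 high-prestin cells. Fgf8 stayed early rising under all 16 alternatives that apply to it.

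Of 18 ribbon synapse genes, 6 were falling and 0 rising, against 14.6% and 10.3% of all genes. Rims2, an active zone scaffold gene, was early: it ran from 0.42 through 93.2 to 407 CPM in intermediate cells, with medians of 302 CPM in low-prestin and 88.4 CPM in high-prestin cells. Erc2, a partner of the same scaffold, was late, with medians of 143, 151 and 38.7 CPM. Rims2, Erc2 and Slc7a14 were not called after correction for the mitochondrial share. The other 4 were Nsf (between) and Pclo, Cabp4 and Slc7a14 (late). Cabp4 was early with prestin limits of 5 and 50 CPM and without the cells with rare markers of other types.

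The late rising genes with the largest differences were absent from most intermediate cells. By the rule given in the methods they were Ecel1, Lce6a, Cubn, H2-D1, P2rx2, Pole, Tspan8 and Gstm7, with medians of 0 to 0.06 CPM in low-prestin, 0 to 0.30 CPM in intermediate and 121 to 307 CPM in high-prestin cells. Ecel1 encodes a membrane endopeptidase, Cubn an endocytic receptor, Pole a DNA polymerase subunit and Gstm7 a glutathione transferase. H2-D1 encodes a class I histocompatibility chain with near-identical relatives, among which reads could be split. H2-D1 was early with prestin limits of 5 and 50 CPM and lay between with means in place of medians. The 7 early rising genes reported by the same rule were Chrna9, Tmem255b, Dock9, Rabggtb, Fgf8, Txnrd1 and Oxnad1. Their medians in intermediate cells were 22.7 to 117 CPM, against 0 to 0.32 CPM in low-prestin cells.

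**Figure D4:**
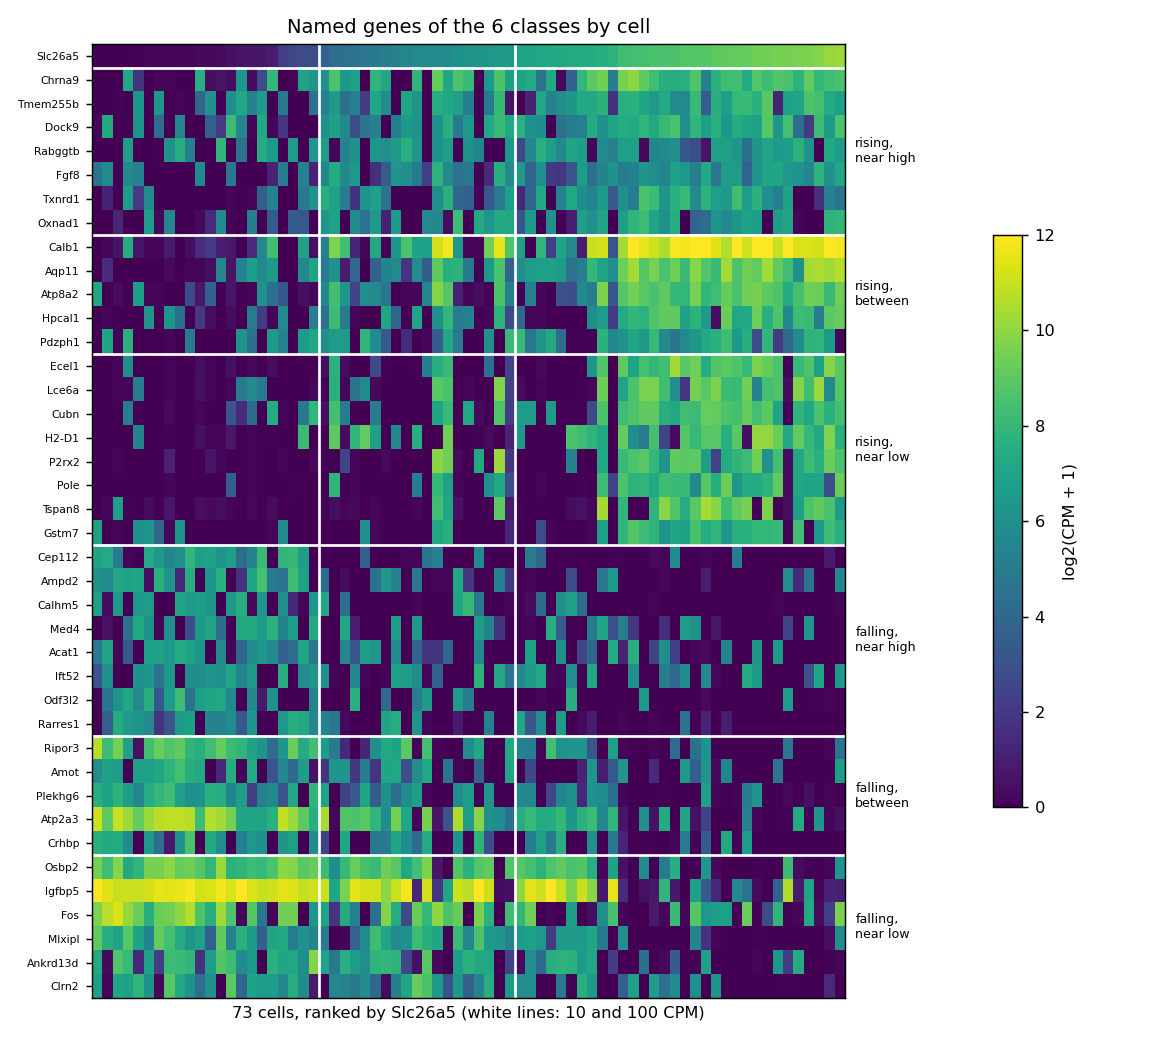
Level of each named gene of the 6 classes in log2(CPM + 1), cells in columns ranked by Slc26a5 with white lines at 10 and 100 CPM. In the rising, near low rows most intermediate columns are dark, and the same few columns are bright for most of these genes.

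Among late rising genes of high abundance, Gpx2 and S100a1 were read in every cell. Gpx2, a glutathione peroxidase gene on chromosome 12 from 76792333 to 76795554, ran from 2711 through 3785 to 13870 CPM in intermediate cells. It ran from 2807 through 3762 to 5967 CPM in low-prestin cells and from 2098 through 13727 to 22475 CPM in high-prestin cells. The medians of low-prestin and intermediate cells were about equal, and the intermediate cells reached far higher. Gpx2 overlaps Fntb on the opposite strand, and its difference of 1.87 log2 units was not called after correction for the mitochondrial share. S100a1, a calcium-binding protein gene, had medians of 691, 1054 and 6904 CPM, and Prxl2a, a redox protein gene, had 128, 289 and 2166 CPM. Both S100a1 and Prxl2a lay between without the cells with rare markers of other types. Nfkbia, an inhibitor of NF-kappa-B, had medians of 51.99, 130.1 and 1379 CPM and ran from 0 to 3622 CPM in intermediate cells. Mdh1, the cytosolic malate dehydrogenase, had 652, 875 and 1623 CPM and, like Gpx2, was not called after that correction. Of 18 antioxidant genes, 5 were rising (Txnrd1 early, Gclc and Gclm between, Gpx2 and Prxl2a late) and 0 falling, against 10.3% and 14.6% of all genes.

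Late falling genes mirrored this. Osbp2, an oxysterol-binding protein gene on chromosome 11 from 3703731 to 3863903, ran from 0 through 341 to 797 CPM in intermediate cells. It was at 155 CPM or more in every low-prestin cell (median 524 CPM), and its median in high-prestin cells was 0.39 CPM. Igfbp5, which encodes a secreted binder of insulin-like growth factors, had medians of 2582, 2005 and 11.1 CPM and reached 10 CPM in all 22 low-prestin, 15 intermediate and 16 high-prestin cells. Igfbp5 lay between with means in place of medians, with shares of cells and without the cells with rare markers of other types. Fos, Mlxipl, Ankrd13d and Clrn2 were late falling genes of the same rule, but Fos was early with prestin limits of 5 and 50 CPM. Glycolytic enzymes were called in 4 of 14 genes, Hk1, Pfkl, Tpi1 and Ldha, each late falling, against 24.9% of all genes called and 14.6% falling. Their intermediate medians were 32.6 to 96.1 CPM and their high-prestin medians 0.23 to 27.1 CPM. The share of glycolytic genes called is near that of all genes. Ldha was not called with means in place of medians, nor Tpi1 with prestin limits of 5 and 50 CPM. Of the early falling genes named by the rule, Cep112 reached 10 CPM in 18 low-prestin, 4 intermediate and 4 high-prestin cells, with medians of 92.3, 0 and 0 CPM. The others of the rule were Ampd2, Calhm5, Med4, Acat1, Ift52, Odf3l2 and Rarres1. With prestin limits of 5 and 50 CPM, Ampd2, Acat1, Ift52 and Rarres1 were late instead. Ift52 was also late without the cells with rare markers of other types.

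Hair cell transcription factor genes were called in 10 of 22, with 7 rising and 3 falling, against 24.9% of all genes called. Barhl1 was early (medians 7.65, 37.7 and 42.4 CPM), Eya1 and Nr2f2 were among the 3 that lay between, and Isl1, Nr2f1 and Sox10 were late. Barhl1, Eya1, Isl1 and Nr2f1 were not called without the cells with rare markers of other types, nor Eya1 and Isl1 after correction for the mitochondrial share. Sox10, a regulator also expressed in glia, reached 10 CPM in 0 low-prestin, 5 intermediate and 22 high-prestin cells, and its highest level was 276 CPM. Sox10 is also in the list of 11 glial markers, whose summed level had medians of 0.23, 21.2 and 102 CPM in the 3 ranges. Of the other glial markers, Mal reached 10 CPM in 1 intermediate cell and in 0 high-prestin cells, and Mbp and Erbb3 reached it in 0 cells of either range. Of the other genes tested, 7 of 33 hair bundle genes, 2 of 14 genes of the mitochondrial genome and 1 of 76 nuclear respiratory chain genes were called, and 0 of 73 cytosolic ribosomal protein genes, against 24.9% of all genes. The share of hair bundle genes is near that of all genes. The 2 mitochondrial genes, mt-Rnr1 and mt-Rnr2, were not called after correction for the mitochondrial share. Both are part of that share, so their loss was built into the correction.

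Late genes were not spread evenly over the intermediate cells. The number of the 8 late rising genes at 10 CPM or more was counted in each cell, a view chosen after the values were seen. It was 0 or 1 in 10 intermediate cells, 2 to 4 in 5 cells and 5 or more in 4 cells. These 4 were cells 3, 30, 44 and 67, whose Slc26a5 levels were 87.1, 53.7, 19.6 and 53.9 CPM, spread over the intermediate range. In low-prestin cells 0 of 22 had 5 or more. Splitting high-prestin cells at 300 CPM, a limit also chosen after the values were seen, 1 of 10 cells from 100 to 300 CPM and 21 of 22 cells above had 5 or more. The early rising genes were on at another place: 5 or more of the 7 were on in 0 of 22 low-prestin cells, 13 of 19 intermediate cells, 6 of 10 cells from 100 to 300 CPM and 20 of 22 cells above. Each step of 10 cells is small, and genes of a class share the cells that put them there, so the counts are a description of these cells.

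**Figure D5:**
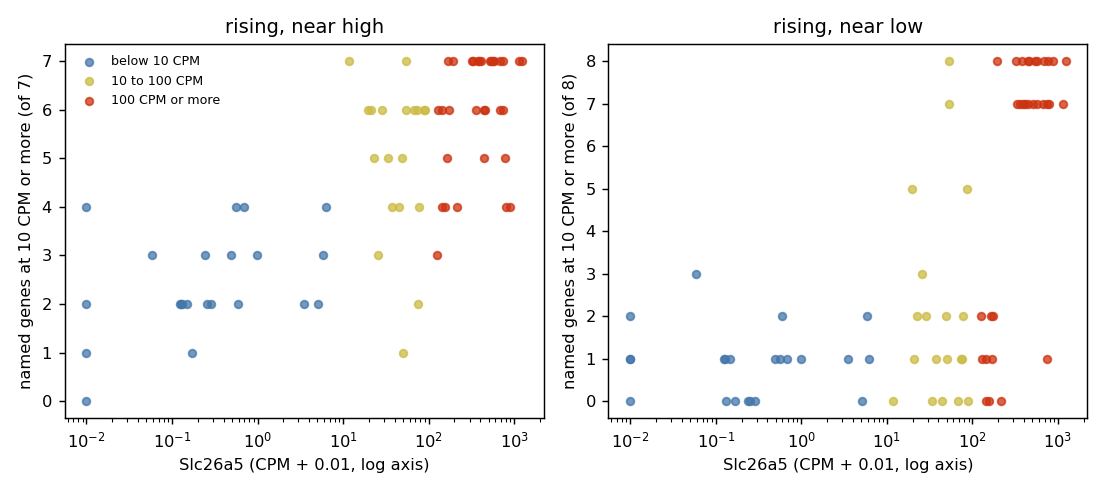
Number of the 7 named early rising genes (left) and the 8 named late rising genes (right) at 10 CPM or more in each cell, against Slc26a5 in CPM (log axis, 0.01 added). On the left 13 of 19 intermediate cells have 5 or more, and on the right 4 of 19 do, while 21 of 22 cells above 300 CPM do so on the right.

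The same 4 intermediate cells held the highest or lowest levels of other genes. Their Gpx2 levels were 11154 CPM in cell 3, 8992 CPM in cell 30, 13870 CPM in cell 44 and 12754 CPM in cell 67, and the remaining 15 intermediate cells lay between 2711 and 4725 CPM. For S100a1 the 4 cells lay between 2457 and 8679 CPM and the others between 95.2 and 1851 CPM. Prxl2a lay between 1227 and 3401 CPM in these cells and between 0.81 and 649 CPM in the others. Calb2 was lowest in the same cells, at 3614 CPM in cell 3, 5308 CPM in cell 30, 2251 CPM in cell 44 and 703 CPM in cell 67, with the others between 7507 and 19079 CPM. Osbp2 was at 0 to 62.1 CPM in them and at 154 CPM or more in the others. The values of these genes did not overlap between the 4 cells and the other 15, but the cells were singled out by genes of the same libraries, so this is a description and no support. Ocm went the other way, at 214 to 1422 CPM in the 4 cells and 555 to 4912 CPM in the others, and Slc26a5, Sri and Kcnj13 levels of the 4 cells lay within the range of the others. Without cell 67, which held transcripts of other cell types, Gpx2 in the remaining 3 cells lay between 8992 and 13870 CPM and Calb2 between 2251 and 5308 CPM. A like split was seen just above the intermediate range. Cell 55, at 191 CPM of Slc26a5, held 22475 CPM of Gpx2, 7790 CPM of S100a1 and 0.17 CPM of Osbp2. The other cells from 100 to 300 CPM of Slc26a5 held 2098 to 6036 CPM of Gpx2 and 118 to 541 CPM of Osbp2. The mitochondrial shares of the 4 cells were 5.63%, 10.4%, 5.55% and 5.94%, inside the span of the intermediate cells (4.81% to 13.0%). Their ribosomal protein shares were 1.75% in cell 3, 1.96% in cell 30, 2.26% in cell 44 and 2.08% in cell 67, against 1.40% to 2.26% over all intermediate cells, and 3 of the 4 were among the 4 highest. Their summed glial markers, which include Sox10, were 498, 175, 178 and 351 CPM in the same order, all among the 5 highest of the 19. The part of these properties in the pattern was not tested.

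A position was also taken per cell, by projecting its levels of the 2143 called genes onto the line from the low-prestin to the high-prestin medians, so that genes with larger differences weigh more. The intermediate cells entered the choice of these genes only through the filter on the mean over all cells. Intermediate cells ran from 0.31 through a median of 0.44 to 0.71. Low-prestin cells had a median of 0.24 and reached 0.36. High-prestin cells began at 0.43 and had a median of 0.76, so the cells of both ends did not center on 0 and 1. Those values of the low-prestin and high-prestin cells are circular because the same cells chose the genes. The 4 highest intermediate cells were cells 67, 44, 3 and 30, at 0.71, 0.69, 0.58 and 0.55. The late rising genes that singled out these cells are among the 2143 genes, so their high positions are no independent support. Within the 19 intermediate cells, the rank correlation of this position with Slc26a5 was -0.01, and that of the mitochondrial share with Slc26a5 was 0.63 (Spearman, n = 19 cells of 1 sample sharing their libraries' depth, given as a description). Between this position and the ribosomal protein share it was 0.69 over the same cells. The order of cells by prestin inside the intermediate range therefore did not match their order by the other genes.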

How the data were processed

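The values deposited by the authors are raw counts, whole numbers for 55292 rows (genes and 1 reporter) in 73 cells, all used here. Per the submitters' processing notes, the tools were featureCounts 2.0.1, HISAT2 2.2.1 and StringTie 2.2.1 with the build mm10; no roles or settings are stated, and annotation and strand setting are not given in the sources used here. PCR copies are part of the counts, since the Smart-Seq HT kit adds no molecular identifier. The reporter row WPRE (0.0161% of counts) was left out of totals, and CPM were computed from the 55291 gene rows. At 10 CPM a gene has 110 counts in the shallowest library. Each cell is 1 deposited sample of the only group, so no test was made. Prestin ranges were set at 10 and 100 CPM. Medians of log2(CPM + 1) were compared over 8618 genes averaging at least 10 CPM, Slc26a5 left out. The procedure was run on simulated counts of graded genes, with planted shifts and a capped spread. Genes read in some cells and at 0 in others were not simulated, so the run does not check their classes. The members, the 30 gene lists and the thresholds were chosen with earlier results of these data known. Named genes are those that kept their class when any single cell was left out, in order of difference (the first 8 in each early or late class and 5 in each class between), plus called genes of the hair cell lists and all IHC and OHC genes. Genes without an official name were skipped, and a few genes that this rule names were left out here. Chrna10 and other genes of small lists need not have kept their class. Gene positions come from GENCODE vM21, whose symbols match 53292 gene rows, and promoters from RefSeq (GRCm38.p6); of the 8618 genes, 6811 had a promoter entry. Besides leaving out each cell in turn, 14 alternative settings were tried: other prestin limits, pseudocounts, filters, folds, means, position limits, scran 1.30.0 size factors, totals without the mitochondrial genome, corrections for mitochondrial share and genes detected, and leaving out cells with rare markers. A mean of 200 CPM or more, leaving out cells 5 and 67, and shares of cells at 10 CPM or more (with a difference of 50 percentage points) were added after seeing the data, as were the counts of genes on per cell and the limit of 300 CPM. Scripts ran under R 4.3.3 and Python 3.11.15 with scipy 1.17.1, pandas 2.3.3, matplotlib 3.10.9 and numpy 2.4.6.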

Additional observations from a re-analysis of the deposited data

Results flagged for a closer look

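The reporter element WPRE, a sequence of the transgenes that no comparison above uses, was read in every range. Its median was 198 CPM in the intermediate cells (range 76.4 to 324), against 128 CPM in low-prestin and 137 CPM in high-prestin cells, and the ranges overlapped. No cells without the reporters were analysed here, so this level has no control beside it.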

How the results depend on the processing

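No paired analysis was possible because the cells form 1 group. Leaving out 1 cell at a time moved the counts to 854 to 927 rising and 1217 to 1292 falling genes. Of these, 340 to 396 rising genes were early and 325 to 376 late, 426 to 487 falling genes were early and 538 to 611 late, and the median positions were 0.49 to 0.57 (rising) and 0.37 to 0.43 (falling). A mean of 50 CPM or more left 436 rising genes (204 early, 129 late) and 408 falling genes (78 early, 232 late, median position 0.28). A fold of 2 log2 units left 502 rising (195 early, 215 late) and 772 falling genes (290 early, 369 late). A mean of 200 CPM or more left 55 rising (16 early, 21 late) and 42 falling genes (4 early, 21 late) of 889. Shares of cells at 10 CPM or more in place of medians gave 45 rising (7 early, 23 late, median position 0.32) and 30 falling genes (8 early, 11 late). These alternatives test fewer genes or ask for a larger difference. A mean of 1 CPM or more with no minimum median gave 753 early falling genes. Means in place of medians gave 237 early and 217 late rising genes, and a pseudocount of 10 gave 238 early rising genes and a median position of 0.50 for falling genes. Prestin limits of 20 and 200 CPM gave median positions of 0.39 (rising) and 0.28 (falling). The cause of these moves was not tested. Leaving out cells 5 and 67 gave 360 early and 370 late rising genes and 461 early and 576 late falling genes. Of 117 named genes, 8 kept their class under every alternative that applies to them. After correction for the mitochondrial share 27 were not called, among them mt-Rnr1 and mt-Rnr2, which are part of that share. Without the cells with rare markers of other types 23 were not called, and 0 without cells 5 and 67. The position of Nr2f1 (-71.6) and the position of Rab7 (-4.51) turned without cells with rare markers, the position of Egr1 (1.19) after correction for the mitochondrial share, and the position of Bcl2l1 (2.82) and the position of Ndufs1 (-13.5) with shares of cells. Positions far outside 0 to 1 arise where the difference of the ends is small. With 19 cells and no animal named, spread between animals cannot be told apart from spread between cells.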
